A study of Mus musculus with 4 samples.

Results

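The albumin gene family in the mouse was described here by its peaks of accessible chromatin and of the histone variant H2A.Z in liver. The members were given by name and located with GENCODE vM21 on GRCm38: Alb, Afp, Afm and Gc, 4 of the 21938 protein-coding genes tested. Every deposited peak was taken that lay between 50 kb before the start of Alb and 50 kb after the end of Afm, or within 5 kb of the TSS of Gc. These regions held 1 WT and 2 Uhrf1hepKO ATACseq peaks, and 14 WT and 13 Uhrf1hepKO H2A.Z peaks.

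The libraries came from whole livers of male C57Bl/6 mice aged 8 to 12 weeks on a normal diet, without any further treatment named. Both livers carried the floxed allele (Uhrf1-fl/fl), and the Uhrf1hepKO liver also carried Alb:Cre, in which regulatory sequence of Alb drives Cre in hepatocytes, while the other liver cells keep Uhrf1. The same 2 livers gave an ATACseq library, which marks DNA cut by the Tn5 transposase, and an H2A.Z ChIPseq library made with micrococcal nuclease. With 1 library per condition the spread between mice is unknown, no test was possible, and the intervals given cover counting error only.

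The length, species and insertion site of the Alb sequence in the transgene are not given in the sources used here. At Alb itself, reads from the transgene and from the endogenous gene therefore cannot be told apart in the Uhrf1hepKO liver. The tissue is whole liver, so that a site open in fewer cells and a site less open in each cell cannot be told apart either. The deletion of Uhrf1 could not be checked with peak lists, which held 1 peak within 5 kb of the TSS of Uhrf1 in each of the 4 libraries.

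Alb encodes serum albumin, the main plasma protein made by hepatocytes. Afp encodes alpha-fetoprotein, its counterpart in the fetal liver, which is turned off after birth, Afm encodes afamin, a carrier of vitamin E, and Gc encodes the vitamin D binding protein. The genes arose by duplication and are known as a group whose promoters are bound by hepatocyte factors such as HNF1, with enhancers further upstream. H2A.Z replaces H2A in nucleosomes beside active promoters and enhancers, and UHRF1 is needed to copy DNA methylation after replication.

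On chromosome 5, Alb (ENSMUSG00000029368, chr5:90460897-90476602), Afp (ENSMUSG00000054932, chr5:90490737-90508907) and Afm (ENSMUSG00000029369, chr5:90518932-90553543) followed each other on the plus strand. Gaps of 14134 bp between Alb and Afp and of 10024 bp between Afp and Afm separated them. The transcript used for each had 15 exons. Gc (ENSMUSG00000035540, chr5:89417522-89457898) lay on the minus strand, with 1002998 bp between its TSS and that of Alb.

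The block of Alb, Afp and Afm with its flanks was 192647 bp long, of which 7.09% was exonic, 55.4% intronic and 37.5% intergenic. It also held the antisense gene Gm43449 between Afp and Afm, which overlaps the end of Afp. Behind Afm lay the pseudogene Gm2602 and the coding gene 5830473C10Rik, which RefSeq lists as Albfm1, a further member of the albumin superfamily. The noncoding gene Gm42109, on the minus strand, spanned the same stretch and overlapped the end of Afm. The 3′ end of Rassf6 reached into the flank. Peaks have no strand, so a peak where genes overlap lies in both of them.

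The 250 bp before each TSS are shown because Alb was the only member with an ATACseq peak at its TSS, while all 4 shared a sequence motif. They were read from the RefSeq FASTA of GRCm38, 5′ to 3′ on the strand of the gene. Capitals mark the 6 letters GTTAAT on either strand, an arm of the site of HNF1.
Alb, chr5:90460647-90460896, plus strand: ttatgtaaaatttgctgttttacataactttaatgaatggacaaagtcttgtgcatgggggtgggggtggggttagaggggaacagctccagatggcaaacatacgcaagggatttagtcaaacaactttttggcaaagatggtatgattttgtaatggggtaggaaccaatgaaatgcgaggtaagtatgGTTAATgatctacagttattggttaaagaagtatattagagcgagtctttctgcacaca
Afp, chr5:90490487-90490736, plus strand: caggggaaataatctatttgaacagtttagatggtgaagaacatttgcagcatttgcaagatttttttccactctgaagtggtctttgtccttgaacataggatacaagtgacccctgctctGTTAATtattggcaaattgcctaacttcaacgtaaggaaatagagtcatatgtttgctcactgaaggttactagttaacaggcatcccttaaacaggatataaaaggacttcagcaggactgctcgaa
Afm, chr5:90518682-90518931, plus strand: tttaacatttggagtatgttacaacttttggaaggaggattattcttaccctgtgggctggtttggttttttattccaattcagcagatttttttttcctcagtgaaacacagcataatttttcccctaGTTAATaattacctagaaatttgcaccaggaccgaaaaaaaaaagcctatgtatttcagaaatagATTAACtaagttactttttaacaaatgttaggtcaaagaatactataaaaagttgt
Gc, chr5:89457899-89458148, minus strand: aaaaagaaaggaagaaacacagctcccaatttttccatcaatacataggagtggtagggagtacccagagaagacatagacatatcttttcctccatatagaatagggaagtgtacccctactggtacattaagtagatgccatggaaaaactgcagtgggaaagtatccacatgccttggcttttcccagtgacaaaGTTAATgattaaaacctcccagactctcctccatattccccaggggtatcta

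The Uhrf1hepKO ATACseq peak centred at −10813 bp from the TSS of Alb is shown by its central 300 bp, since it held the only overlap of ATACseq and H2A.Z in the block. The WT ATACseq peak is shown whole because it was the only one in that library. Neither held GTTAAT in the sequence printed, so they have no capitals.
Upstream of Alb, chr5:90449935-90450234, plus strand: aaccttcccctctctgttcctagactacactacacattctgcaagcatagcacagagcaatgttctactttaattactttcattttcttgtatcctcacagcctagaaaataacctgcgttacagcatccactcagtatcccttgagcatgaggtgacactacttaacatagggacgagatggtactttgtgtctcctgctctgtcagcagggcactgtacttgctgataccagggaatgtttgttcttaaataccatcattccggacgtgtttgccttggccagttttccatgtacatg
WT ATACseq peak behind Afm, chr5:90560735-90560874, plus strand: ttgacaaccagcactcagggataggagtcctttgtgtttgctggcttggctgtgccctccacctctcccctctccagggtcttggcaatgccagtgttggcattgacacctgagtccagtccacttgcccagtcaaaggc

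GTTAAT was found in the promoter sequence of all 4 members, beside 6.04% of the same 250 bp of the 21938 protein-coding genes. It lay at −59 to −54 from the TSS of Alb, at −128 to −123 of Afp and at −52 to −47 of Gc. Afm held it at −121 to −116 and again, on the other strand, at −56 to −51. Thus Alb, Afm and Gc each had an exact match close to the GENCODE TSS, and Afp only further up. Only exact matches were counted: the printed Afp sequence also holds gttaac, which differs in the last letter, nearer its TSS. The distances depend on the TSS used, which RefSeq places at −27 bp (Alb), −23 bp (Afp), 17 bp (Afm) and 0 bp (Gc) from that of GENCODE.

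TATAAA, the TATA box, was found in Afp at −30 to −25 and in Afm at −13 to −8, and in 11.5% of all promoters. CCAAT was present in all 4 members and in 36.0% of promoters, and CAAAGTC, part of the site of HNF4, in Alb alone of the 4 and in 3.51% of promoters. GCAAT, part of a C/EBP site, was found in Afp (22.3% of promoters), CACCC at 2 places in Alb (52.7%) and TGTTTAC, a FOXA motif, in none of the 4 (2.67%). Both strands were searched, and no matches in these 4 promoters overlapped. A match is a description of letters, not a bound site.

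The promoters were poor in G and C. Their GC content was 39.2% for Alb, 38.8% for Afp, 30.8% for Afm and 42.0% for Gc, below the median of 54.0% over all promoters. They held 3, 2, 1 and 0 CG dinucleotides respectively, where the median promoter held 8.00. The central 300 bp of the peak upstream of Alb had a GC content of 44.0% with 4 CG dinucleotides and 1 GCAAT, and none of the other 6 motifs. GTTAAT was found in 4.92% of 300 bp windows centred on the 10764 Uhrf1hepKO ATACseq peaks.

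**Figure D1:**
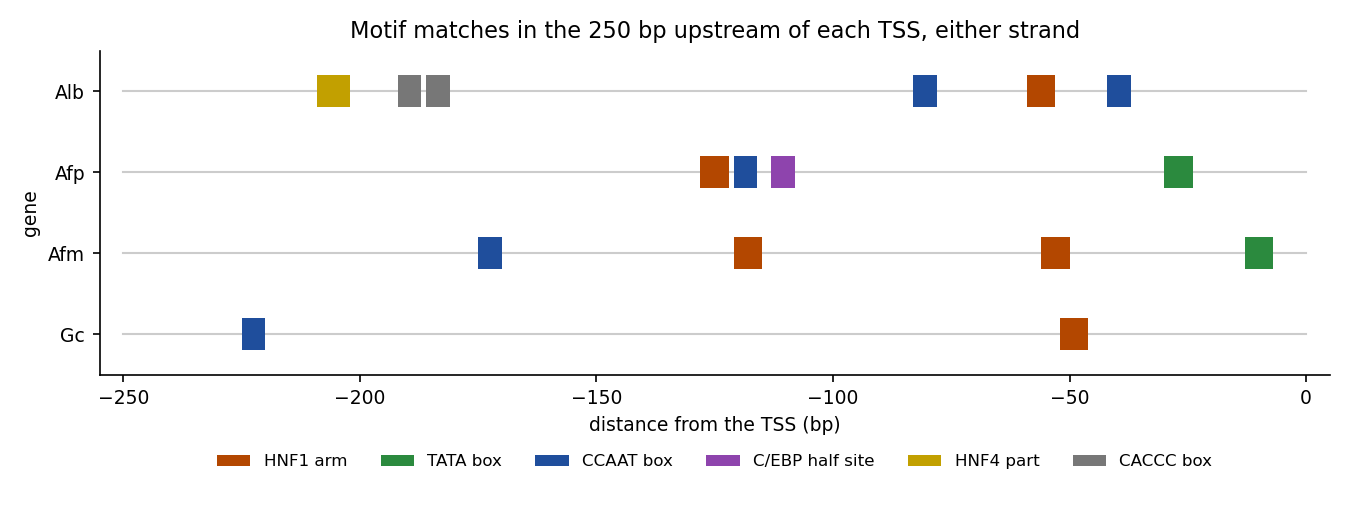
Positions of 6 of the motifs in the 250 bp before the TSS of Alb, Afp, Afm and Gc, in bp from the TSS, on either strand. Each coloured box is 1 exact match. The exact match of the HNF1 arm nearest the GENCODE TSS starts at −59 in Alb, −56 in Afm and −52 in Gc but at −128 in Afp.

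The block held more H2A.Z peaks per length than its chromosome, while its 1 and 2 ATACseq peaks were too few to compare a density. The WT H2A.Z list had 13 peaks in it, or 6.75 per 100 kb, beside 1.97 on chromosome 5 and 1.89 in the genome. The Uhrf1hepKO list had 11, or 5.71 per 100 kb, beside 1.80 and 1.73. These peaks covered 3170 bp (1.65%) of the block in WT and 2850 bp (1.48%) in Uhrf1hepKO. ATACseq had 1 WT peak (0.519 per 100 kb, chromosome 5 0.402) and 2 Uhrf1hepKO peaks (1.04 per 100 kb, chromosome 5 0.406). They covered 140 bp and 662 bp.

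The H2A.Z peaks were spread unevenly over the block. None lay in the gene body of Alb in either liver, where 3 in each lay in that of Afp, 1 of the WT peaks also in Gm43449. In WT, 405 bp under H2A.Z were exonic, 1321 bp intronic and 1444 bp intergenic, and in Uhrf1hepKO 275 bp, 1064 bp and 1511 bp. Widths ran from 95 to 691 bp in WT and from 117 to 754 bp in Uhrf1hepKO, around list medians of 156 and 167 bp. The widest peak of each list in the block was the same site behind the TSS of Afp.

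**Figure D2:**
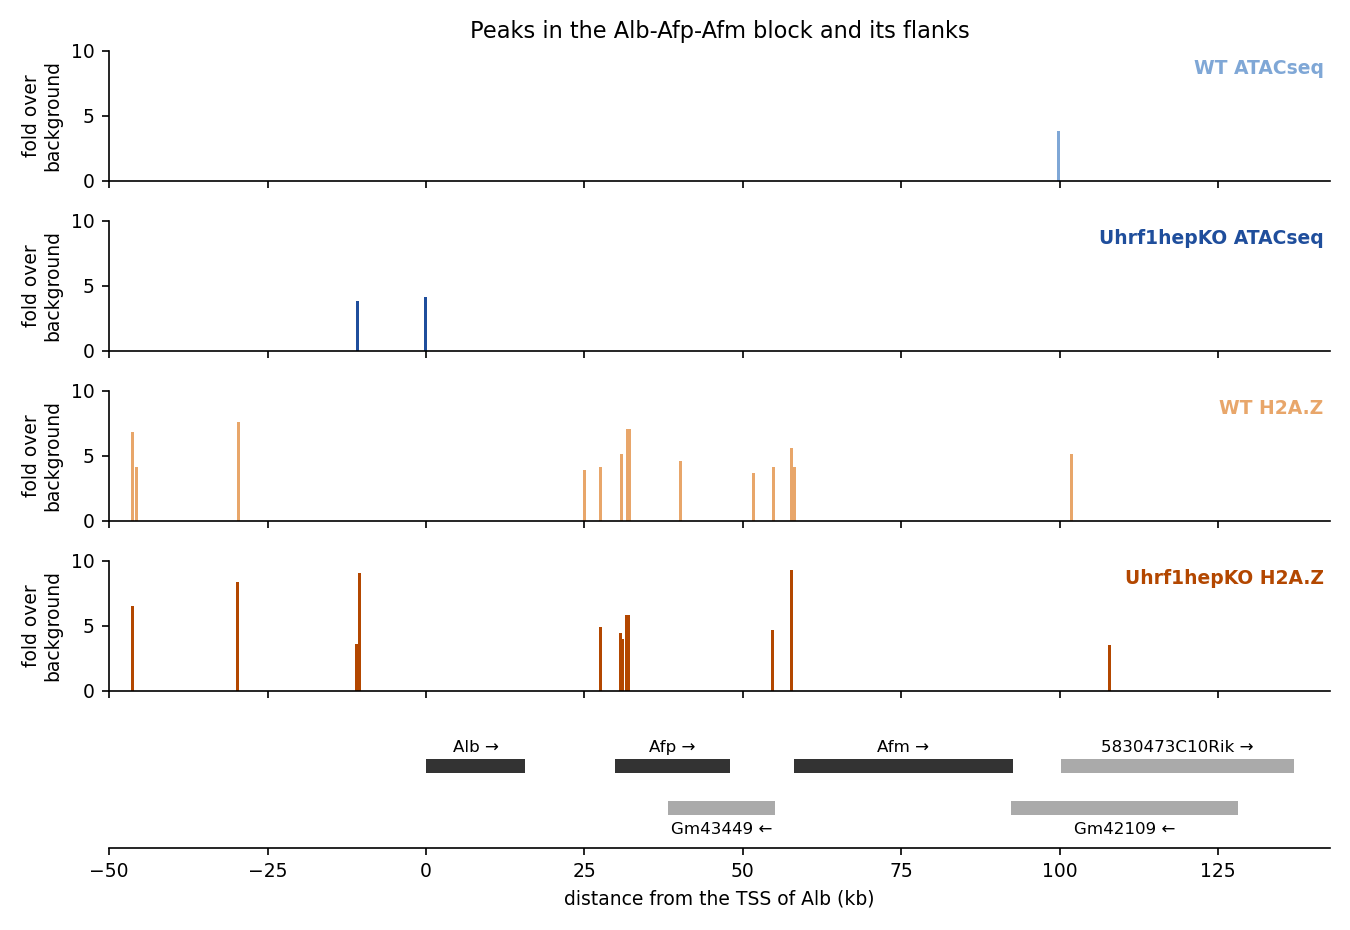
ATACseq and H2A.Z peaks of WT and Uhrf1hepKO over the block, with distance from the TSS of Alb in kb on the x axis and the fold enrichment over background that the authors' caller gave on the y axis. Each bar is 1 peak, with narrow bars widened so that they can be seen, and the lowest panel shows the members in black and other genes in grey, with arrows for the strand. ATACseq peaks stand at Alb and upstream of it only in Uhrf1hepKO, while H2A.Z peaks of both livers cluster at the start of Afp and of Afm.

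For each H2A.Z peak, the number of reads over its summit was recovered from the deposited fold and p-value. MACS2 gives the fold as the reads plus 1 over the background plus 1 and the p-value as the Poisson chance of more reads. A whole number of reads met both in 99.8% of the peaks of each list, with a base background of 3.10 reads in WT and 3.30 in Uhrf1hepKO. The median peak had 21.0 reads in WT and 23.0 in Uhrf1hepKO, and the lowest at the base background had 11 and 12. Peaks of the locus thus rest on small counts, and a site below that limit is missing from the list but need not be empty.

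Alb had an ATACseq peak at its TSS in the Uhrf1hepKO liver alone. It lay at chr5:90460649-90460918 and was 270 bp wide with a fold of 4.18 over background, averaged over the peak. It covered 248 bp before the TSS, with the GTTAAT, both CCAAT matches and the CAAAGTC given above, and the first 22 bp of exon 1, in the 5′UTR. The nearest WT ATACseq peak was 99816 bp away. From 5 kb before to 5 kb after the TSS, an ATACseq peak was found at 27.9% of all protein-coding genes in Uhrf1hepKO and at 30.2% in WT.

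The same window of 5 kb at Alb held no H2A.Z peak in either liver, where 52.8% of protein-coding genes had one in WT and 51.0% in Uhrf1hepKO. The nearest lay 25037 bp downstream in WT and 10428 bp upstream in Uhrf1hepKO. At the TSS of Alb the Uhrf1hepKO liver therefore showed an accessible site without a called H2A.Z peak beside it.

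That H2A.Z peak was part of a site 10 to 11 kb upstream of Alb that was listed only in Uhrf1hepKO, in intergenic sequence. An ATACseq peak at chr5:90449889-90450280 was 392 bp wide, with a fold of 3.81. An H2A.Z peak at chr5:90449712-90450065 overlapped its left side by 177 bp, and a narrower peak at chr5:90450304-90450469 began behind a gap of 23 bp on its right. Their summits lay at −222 bp and 313 bp from the centre of the ATACseq peak, so the accessible site sat between them.

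The right-hand H2A.Z peak had 53 reads over its summit (39.7 to 69.3, exact Poisson 95% interval) and a fold of 9.04. The left-hand peak had 27 reads (17.8 to 39.3) and a fold of 3.60. The right-hand count was the highest of any H2A.Z peak in the block or near Gc in either liver, and its interval overlapped that of the Uhrf1hepKO peak before Afm (27.7 to 53.3). The nearest WT H2A.Z peak lay 18421 bp and the nearest WT ATACseq peak 110454 bp from the ATACseq peak.

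The local background at these peaks was above the base of 3.30 reads, at 4.98 on the right and 6.77 on the left. In the Uhrf1hepKO list, 1.56% of peaks had a background of 4.98 or higher and 1.02% one of 6.77 or higher. The part of the transgene in these values cannot be told apart from that of the locus. ATACseq values are averages over a peak, so that few of these peaks could be solved for reads. The 388 of 10582 WT and 387 of 10764 Uhrf1hepKO peaks that were solved gave a base background of 1.56 and 2.0 reads. Whether this holds for the other ATACseq peaks is unknown. The part of the ATACseq background in which library lists a peak was not tested.

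**Figure D3:**
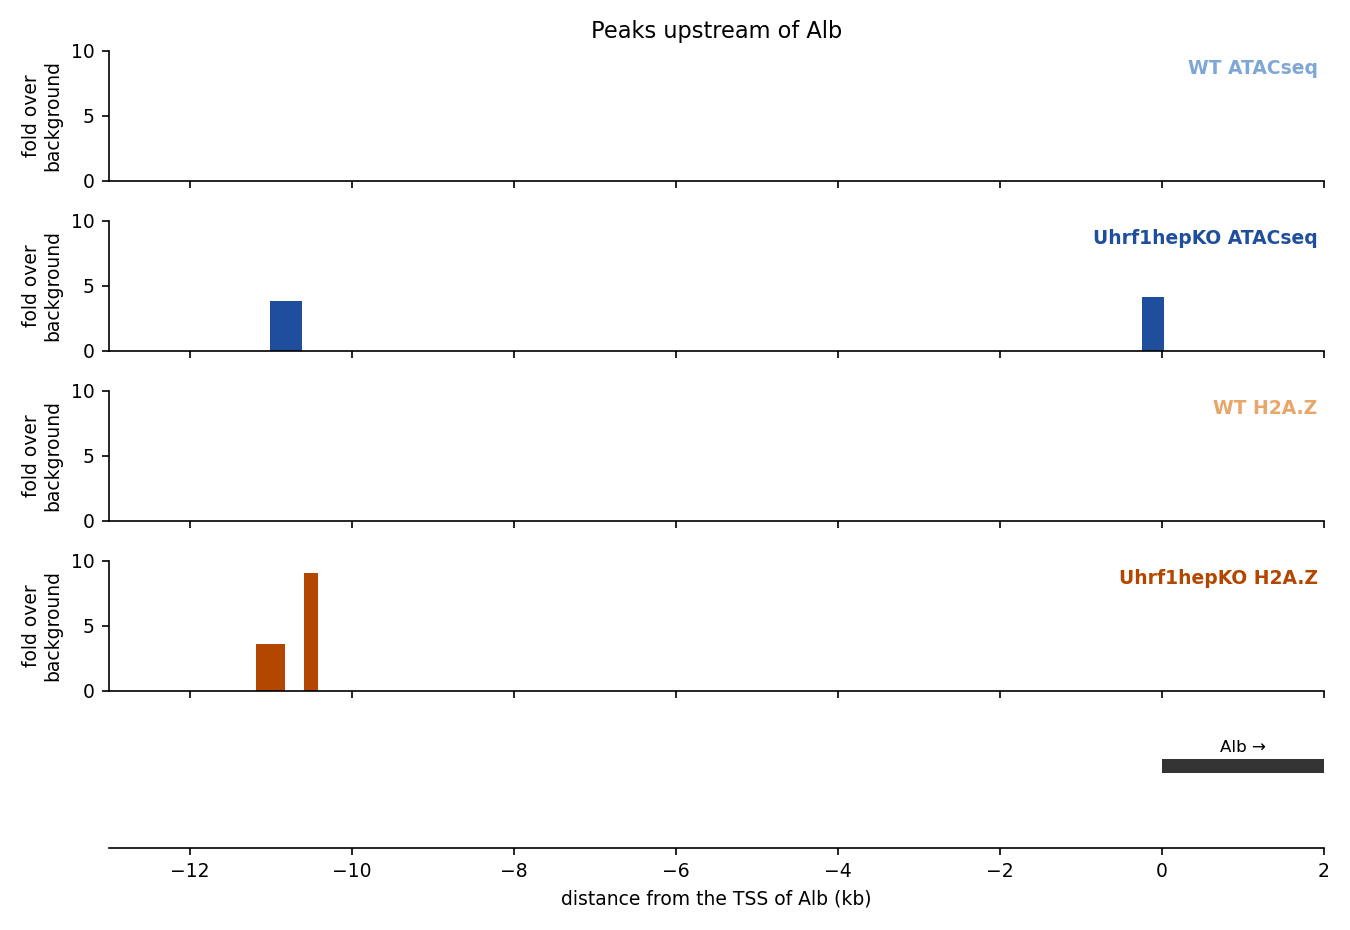
Peaks from 13 kb before to 2 kb after the TSS of Alb, drawn at their widths, with the fold enrichment over background on the y axis and distance from the TSS in kb on the x axis. Only the Uhrf1hepKO lists have peaks here: ATACseq at the TSS (fold 4.18) and upstream (3.81), with H2A.Z peaks of fold 3.60 and 9.04 on the left and right of the upstream site.

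By fold, the right-hand peak ranked 2 among the 11490 Uhrf1hepKO H2A.Z peaks that met no WT peak, whose median fold was 4.42. In the whole list, 771 peaks (1.64%) had as many reads or more, and 32 of these met no WT peak. The other 31 had backgrounds of at least 19.1 reads and folds of 3.72 or lower. Of them, 17 lay close together on chromosome 11, between bases 3140468 and 3197639. Of the peaks without WT overlap, only this one thus had 53 reads or more at a background below 19. Lower counts inside its interval of 39.7 to 69.3 were found elsewhere, such as 42 reads at a background of 7.39 and 44 at 9.24. The left-hand H2A.Z peak, the one that overlapped the ATACseq peak, ranked 9699 by fold among the same 11490. The ATACseq peaks were less marked, with ranks by fold of 1638 (upstream) and 945 (TSS) among the 4268 Uhrf1hepKO ATACseq peaks without WT overlap.

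An ATACseq peak and an H2A.Z peak listed only in Uhrf1hepKO lay within 150 bp of each other at 223 of those 4268 ATACseq peaks (5.22%). In the whole Uhrf1hepKO lists, 27.2% of ATACseq peaks and 7.25% of H2A.Z peaks overlapped a peak of the other assay. In the block 1 of 2 ATACseq peaks did (50%, 1.26 to 98.7%, exact binomial 95% interval). In WT 0 of 1 did, beside 35.3% of the list, and of the 13 WT H2A.Z peaks of the block 0 overlapped an ATACseq peak, beside 8.64% of that list.

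**Figure D4:**
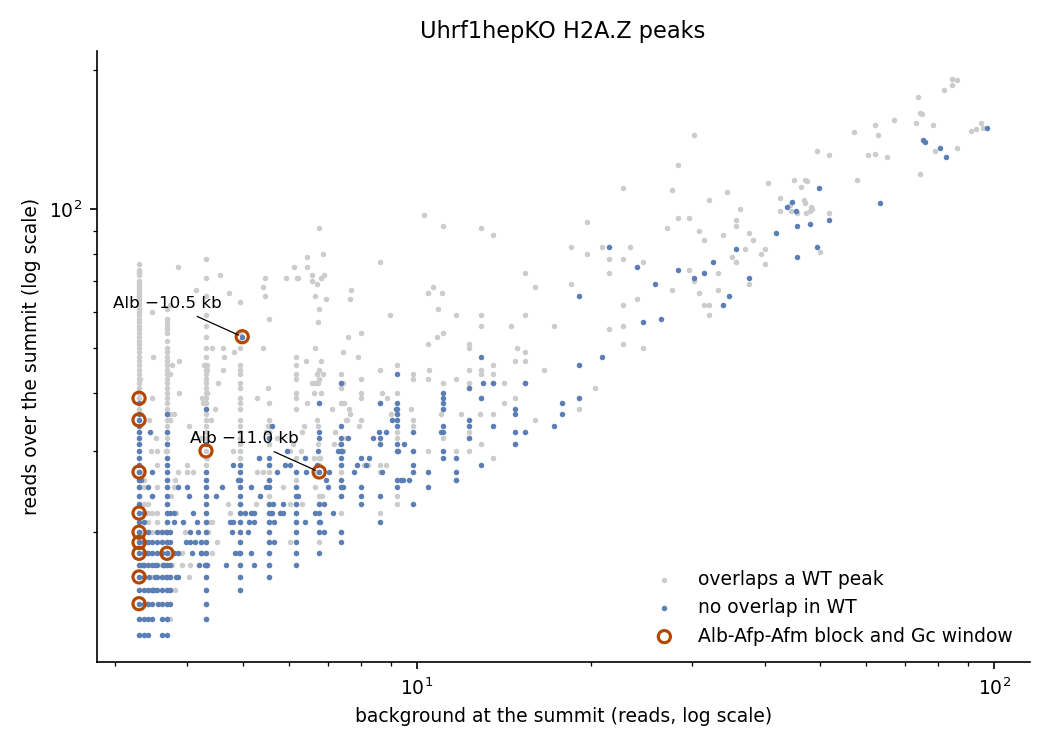
Reads over the summit against the background at the summit for the Uhrf1hepKO H2A.Z peaks, both on log axes, with grey points for peaks that overlap a WT peak, blue points for those that do not, and rings for the peaks of the block and the window of Gc. The peak 10.5 kb before Alb has 53 reads over a background of 4.98. Other blue points at a like background lie lower, such as 37 reads at 4.31 and 38 at 6.77.

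Afp had most of its H2A.Z close behind the TSS, in both livers, and no ATACseq peak. Within 5 kb of its TSS lay 4 H2A.Z peaks in each list. None fell in the 500 bp before the TSS, and the nearest edge was 816 bp downstream in WT and 786 bp in Uhrf1hepKO. The strongest lay over exon 3, at chr5:90492493-90493183 in WT, 691 bp wide, and at chr5:90492364-90493117 in Uhrf1hepKO, 754 bp wide.

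Its summit had 32 reads (21.9 to 45.2) in WT and 30 (20.2 to 42.8) in Uhrf1hepKO, with backgrounds of 3.69 and 4.31. The 2 libraries had nearly the same count there. The peak, the widest of the block, also held the highest number of CG dinucleotides there, with 19 in the WT peak and 18 in the Uhrf1hepKO peak. These numbers are not corrected for width.

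Closer to the TSS, a WT peak of 428 bp over exon 2 (chr5:90491553-90491980, 20 reads, 12.2 to 30.9) met 2 peaks in Uhrf1hepKO. These were chr5:90491523-90491676 with 18 reads (10.7 to 28.4) and chr5:90491808-90491982 with 16 reads (9.15 to 26.0). The site was thus called whole in WT and in 2 pieces in Uhrf1hepKO, with overlapping intervals. Before the TSS, at −2278 bp in WT and −2290 bp in Uhrf1hepKO, peaks had 16 and 20 reads. A peak at −4751 bp (15 reads, 8.40 to 24.7) was listed in WT only, as was one in the intron shared with Gm43449, 10362 bp behind the TSS (18 reads, 10.7 to 28.4).

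Afm had an H2A.Z peak directly before its TSS in both livers, and it was the site of the block that differed most in reads between them among those listed in both. In WT it lay at chr5:90518439-90518767 with 22 reads (13.8 to 33.3) and a fold of 5.61. In Uhrf1hepKO it lay at chr5:90518458-90518783 with 39 reads (27.7 to 53.3) and a fold of 9.30. The summit stood at −433 bp from the TSS in WT and at −249 bp in Uhrf1hepKO, a shift of 184 bp. The Poisson intervals overlapped, and the spread between mice at this site is unknown. Of the peak, 23.1% in WT and 28.2% in Uhrf1hepKO was repeat-masked.

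A WT peak with 16 reads (9.15 to 26.0) at chr5:90518993-90519087, 115 bp behind the TSS of Afm in exon 1 to its summit, was not listed in Uhrf1hepKO. In the intron of Gm43449, peaks at −3226 bp (WT, 16 reads) and −3323 bp (Uhrf1hepKO, 19 reads) from the TSS overlapped. A WT peak further up, at −6350 bp, had 14 reads (7.65 to 23.5). No ATACseq peak was listed in this window at Afm in either liver.

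Gc, apart from the other members, had no ATACseq peak near it in either liver. The nearest was 528000 bp from its TSS in WT and 736971 bp in Uhrf1hepKO. An H2A.Z peak upstream of it was listed in both, with 19 reads (11.4 to 29.7) and its summit at −3953 bp in WT, and 22 reads (13.8 to 33.3) at −3928 bp in Uhrf1hepKO. A second Uhrf1hepKO peak at −4308 bp had 18 reads (10.7 to 28.4). The next upstream peak in Uhrf1hepKO lay just outside the 5 kb, at −5100 bp with 17 reads. In WT it lay much further out, at −11051 bp with 14 reads.

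Far upstream of Alb, H2A.Z was alike in the 2 livers. The site 46 kb before the TSS had 27 reads in each (17.8 to 39.3 for both), at summits of −46349 bp in WT and −46384 bp in Uhrf1hepKO. The site 30 kb before it had 30 reads (20.2 to 42.8) in WT and 35 (24.4 to 48.7) in Uhrf1hepKO, and both peaks started at the same base. A peak at −45610 bp with 16 reads (9.15 to 26.0) was listed in WT only.

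Behind Afm, the only WT ATACseq peak of the block, chr5:90560735-90560874, had a fold of 3.80 and ended 232 bp before the TSS of 5830473C10Rik, inside an intron of Gm42109. It held no CG dinucleotide at a GC content of 56.4%. Uhrf1hepKO listed no peak there. Where 5830473C10Rik and Gm42109 overlap, a WT H2A.Z peak with 20 reads (12.2 to 30.9) lay 1628 bp behind the TSS of 5830473C10Rik and a Uhrf1hepKO peak with 14 reads (7.65 to 23.5) 7688 bp behind it, without overlap.

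Across the block, 6 of 13 WT H2A.Z peaks and 3 of 11 Uhrf1hepKO H2A.Z peaks met no peak of the other genotype, beside 30.0% and 24.4% of the whole lists. As shares of peaks that did overlap, these were 53.8% (25.1 to 80.8%) in WT and 72.7% (39.0 to 94.0%) in Uhrf1hepKO, and the intervals held the shares of the whole lists, 70.0% and 75.6%. For ATACseq, neither the 1 WT peak nor the 2 Uhrf1hepKO peaks overlapped the other genotype, where 38.7% and 39.7% of the lists did not.

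Reads were then compared at the 8 sites listed in both livers, 7 in the block and 1 at Gc. The ratio of Uhrf1hepKO to WT reads ran from 0.800, at exon 2 of Afp, to 1.77, before Afm. The low end rests on the choice of the Uhrf1hepKO piece with the longer overlap, and the other piece, which covers the WT summit, gave 0.900. The median of the 8 was 1.16, beside 1.07 over the 34129 such pairs in the genome, of which the central 95% lay between 0.710 and 1.62. Of the 8, only the site before Afm reached 1.5 times as many reads in Uhrf1hepKO, as did 5.51% of all pairs, and 0 reached it in WT, as did 1.40%. The ratio of 1.77 before Afm lay above that central 95%. All 8 pairs of Poisson intervals overlapped, which does not show that the counts were equal. The reads were not corrected for depth, and paired summits lay up to 200 bp apart.

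**Figure D5:**
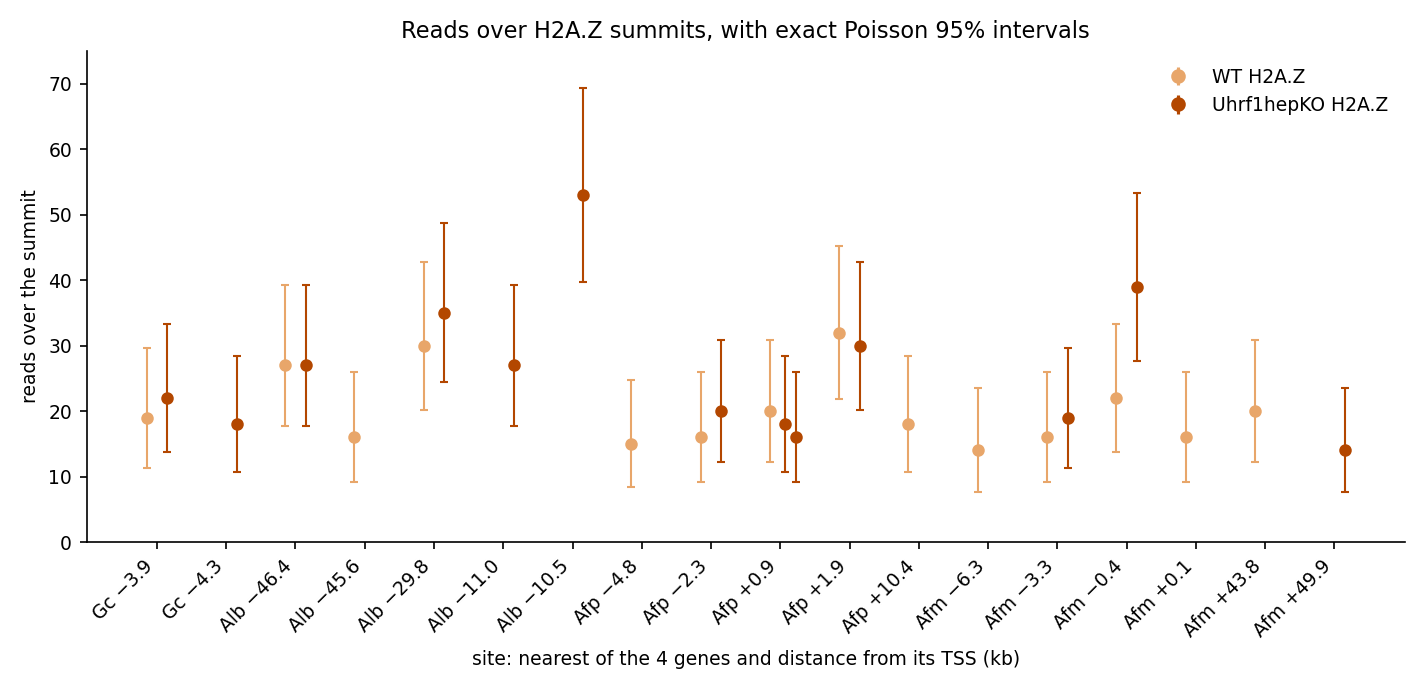
Reads over the summit of each H2A.Z peak in the block and the window of Gc, with exact Poisson 95% intervals, for WT (light) and Uhrf1hepKO (dark), in the order of chromosome 5 and labelled with the nearest member and the distance of the first peak's summit from its TSS in kb. Where both livers have a point the intervals overlap, and the highest point, 53 reads 10.5 kb before Alb, has no WT point.

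At other genes for plasma proteins, the share with an ATACseq peak was close to that of all genes. Of a list of 20, 5 had an ATACseq peak in this window in WT and 6 in Uhrf1hepKO (25.0% and 30.0%, beside 30.2% and 27.9% of all genes). An H2A.Z peak was found at 8 of the 20 in each liver (40.0%, beside 52.8% and 51.0%). Vtn, the adhesion protein vitronectin, had the highest WT H2A.Z fold of those named, 8.04, followed by Fgb, a fibrinogen chain (7.07), and Hpx, the haem carrier hemopexin (6.82). In WT ATACseq, the copper carrier Cp (5.73) was ahead of Hpx (4.49) and the fibrinogen chain Fgg (4.27).

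Of 16 genes for factors known to act on Alb or Afp, 3 had an ATACseq peak in WT and 4 in Uhrf1hepKO (18.8% and 25.0%, beside 30.2% and 27.9% of all genes). H2A.Z peaks were found at 9 in WT and 11 in Uhrf1hepKO (56.2% and 68.8%, beside 52.8% and 51.0%). Of those named here, the WT H2A.Z folds were 11 at Dbp, a circadian activator of Alb, 8.53 at Nfia and 7.80 at Zbtb20, a repressor of Afp. The WT ATACseq folds were 6.55 at Zbtb20, 4.27 at Nfia and 4.20 at Dbp.

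The label of the tissue could not be checked with its markers in these lists. Of 5 hepatocyte markers, Alb among them, 0 had an ATACseq peak in the window of 5 kb in WT and 1, Alb itself, in Uhrf1hepKO, and 1 and 0 had an H2A.Z peak. Over all genes these shares were 30.2% and 27.9% for ATACseq and 52.8% and 51.0% for H2A.Z. The lists hold only 4 or 5 genes, and why few of them had a peak was not tested. The 4 markers each of Kupffer cells, endothelial cells and muscle had none in any list. Of 4 stellate cell markers 1 had an H2A.Z peak in WT, and of 4 cholangiocyte markers 1 had a peak in WT ATACseq and 1 in each H2A.Z list.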

How the data were processed

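Peaks came from 1 WT and 1 Uhrf1hepKO liver, each with an ATACseq and an H2A.Z ChIPseq library. Reads were aligned by the authors to GRCm38.p4 with BWA-MEM after trimming with Trimmomatic (FastQC 0.11.5, per the labels), and cleaned with Picard, with duplicates removed for ChIPseq. MACS2 was run on each library alone and, for ATACseq, in broad mode with a paired-end option, although these reads are described as single-end. The version of MACS2, the mode for H2A.Z and any control library are not given in the sources used here. For each peak the authors deposited a display score, a fold enrichment (a ratio of reads to local background), and −log10 p- and q-values, which for ATACseq are averages over the peak and for H2A.Z stand at the deposited summit. Nothing was scaled between libraries, so that folds are compared only within a list.

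Scaffolds and mitochondrial DNA were left out, which kept 10582 of 10758 (WT ATACseq), 10764 of 10972 (Uhrf1hepKO ATACseq), 51450 of 51702 (WT H2A.Z) and 47135 of 47391 (Uhrf1hepKO H2A.Z). An overlap needed 1 bp. Reads over H2A.Z summits were whole numbers that met fold and −log10 p within 0.001. Depth was read from them here, and for ATACseq only as the base background of the few peaks that could be solved. Sequence was read from the RefSeq FASTA of GRCm38, whose lower-case bases were counted as repeat-masked. RefSeq places the TSS of Alb, Afp, Afm and Gc at −27, −23, 17 and 0 bp from that of GENCODE vM21, used here. All peaks in the regions were described, and of each gene list up to 4 genes with the highest WT fold were named, of which some are not reported here. The members and lists were chosen with earlier results of these data known. Steps were tested on simulated data: 2000 of 2000 read counts and 400 of 400 overlaps were recovered. The software was Python 3.11.15 with scipy 1.17.1, numpy 2.4.6, matplotlib 3.10.9 and pandas 2.3.3.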

Additional observations from a re-analysis of the deposited data

How the results depend on the processing

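For counts, covered lengths and overlaps, 104 values were recomputed under another setting. Of these, 83 stayed within 1.5 times the reported value or inside its interval and 21 did not. The 83 include values that could hardly move, so they overstate stability. The exact intervals for overlap shares of 1 or 2 ATACseq peaks were wide. With flanks of 100 kb, WT ATACseq overlap with Uhrf1hepKO and with H2A.Z each went from 0 of 1 to 1 of 2 peaks. Both still counted as inside. A q-value limit of 0.05 removed no peak of the block, so the values there could not move. Without the peaks under the median fold of each list there were 0 WT ATACseq peaks (0 bp), 1 Uhrf1hepKO ATACseq peak (270 bp, the one at the TSS of Alb, with 0 overlaps with H2A.Z), 6 WT and 5 Uhrf1hepKO H2A.Z peaks in the block (1738 bp in Uhrf1hepKO), and 3 H2A.Z peaks near the TSSs of the 4 members in each liver in place of 8. A q-value of 0.01 or lower left 0 WT ATACseq peaks (0 bp). Flanks of 100 kb gave 2 WT ATACseq peaks (349 bp), 23 WT H2A.Z peaks (5724 bp) and 19 Uhrf1hepKO H2A.Z peaks (5693 bp). A window of 2 kb around the TSS gave 4 H2A.Z peaks in each liver. With at least 50% of both peaks required, the upstream ATACseq peak no longer overlapped H2A.Z (0 of 2). Fewer peaks, a longer region, a narrower window or a stricter overlap account for these by construction. Of the 288 values for single genes and lists, 257 were unchanged in this sense and 31 moved.

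No paired analysis was possible because each condition has 1 library. For the same reason leaving out a library was not run. The effect of depth on which library lists a peak was not tested.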
